A study of Homo sapiens with 8 samples.

Results

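The canonical histone genes encode the core histones H2A, H2B, H3 and H4 and the linker histones H1 that package DNA into nucleosomes. Members were the genes of the deposited table whose symbols carry the names of these clusters, without pseudogenes, and 67 of the 60664 genes met that rule. They were 7 H1, 16 H2A, 17 H2B, 13 H3 and 14 H4 genes. Of the members placed on the hg38 genome by the gene annotation (GENCODE v44), 55 lay on chromosome 6, 9 on chromosome 1 and 1 on chromosome 3. The chromosome 3 gene is H1-10, a linker histone that is made outside of replication, and values are therefore also given without it. All values are RNA levels, and no values of histone protein were analysed.

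RNA-seq was performed on THP-1 cells, a human line of acute monocytic leukemia, in 4 groups of 2 replicates. Parental cells were kept in DMSO, the solvent control, or in 1 µM decitabine (DAC), a DNA hypomethylating nucleoside, for 6 days. DAC-resistant THP-1 cells were treated in the same 2 ways. The resistant line was a population that had survived months of repeated DAC pulses and was then kept without the drug before the experiment, so that its DMSO group also had a history of DAC exposure, which the parental groups lacked. The labels call the replicates biological without further detail, and p-values measure the spread between these libraries. Recovered reads on genes ranged from 28658347 to 33354318 per library. Of the monocytic markers, SPI1 was at 67.5 to 129 FPKM (fragments per kilobase of gene model, scaled to library size) and CD4 at 113 to 163 FPKM in the 8 libraries. CD3E and EPCAM, which mark T cells and epithelium, did not exceed 0.151 and 0.0898 FPKM, while COL1A1 and HBB reached 6.14 and 2.94 FPKM.

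Canonical histone genes are transcribed mainly in S phase, when new DNA has to be packaged, under the co-activator NPAT. Their mRNAs lack introns and usually end shortly behind a conserved stem-loop that is bound by SLBP and takes the place of a poly(A) tail. Some of the genes can also give longer, polyadenylated mRNAs, which are known from cells that have left the cycle. The libraries were made with an mRNA kit that captures poly(A) RNA, so mRNAs that end at the stem-loop are captured poorly and the levels below are not levels of all histone mRNA.

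Since mRNAs that end at the stem-loop are captured poorly, it was searched in the annotated transcripts. A 16-base consensus was used that allows for a few base changes. The stem-loop was found in 64 members. H1-10 had none, and H2AC18 and H2AC19 were not searched, since their identifiers were not in the annotation used. The form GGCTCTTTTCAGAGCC stood in 36 members, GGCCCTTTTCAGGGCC and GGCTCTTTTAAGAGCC in 9 each and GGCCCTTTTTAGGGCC in 4. Those of the gene with the highest level of its class in the parental DAC libraries (for H4 of 2 genes, H1-10 left aside) are shown 5′ to 3′ as RNA-sense DNA, with the hairpin in capitals. They lie at chr6:26055740-26055764 (minus strand, H1-2), chr6:26124664-26124689 (plus, H2AC6), chr6:27146361-27146386 (minus, H2BC12), chr6:27810511-27810536 (plus, H3C10), chr6:26285126-26285151 (minus, H4C8) and chr6:27139649-27139674 (plus, H4C9) of hg38.
H1-2: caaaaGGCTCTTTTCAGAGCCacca
H2AC6: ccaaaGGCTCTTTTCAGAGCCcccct
H2BC12: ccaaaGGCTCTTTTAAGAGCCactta
H3C10: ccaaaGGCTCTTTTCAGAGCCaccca
H4C8: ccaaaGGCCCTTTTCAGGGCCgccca
H4C9: aaaaaGGCCCTTTTTAGGGCCcctaa

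The first question was what 6 days of DAC did to these mRNAs in parental cells. The 66 members other than H1-10 together took 15.2 and 15.8 RPM (reads scaled to 1000000 reads on genes) in the 2 DMSO libraries and 198 and 207 in the 2 DAC libraries. Their summed level was 17.8 ± 0.703 FPKM (SD, n = 2) with DMSO and 208 ± 1.41 FPKM (SD, n = 2) with DAC. These sums hold every member and so do not depend on any filter on low values. The 2 groups did not overlap.

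**Figure D1:**
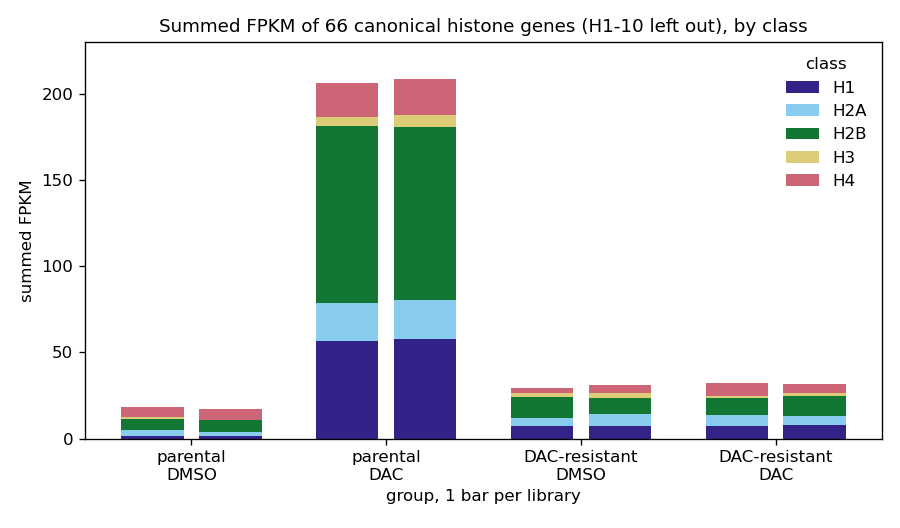
Summed FPKM of the 66 canonical histone genes other than H1-10 (vertical axis, FPKM), 1 bar for each library in 4 groups, with colours for the 5 classes. The 2 parental libraries with DAC reach about the same height and exceed the other 6, and H2B and H1 mRNAs make up most of them.

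With H1-10 the H1 genes summed to 32.2 ± 4.56 FPKM with DMSO and 127.5 ± 2.33 FPKM with DAC (SD, n = 2). Once H1-10 is left out, the largest sum was that of H2B genes, which encode the partner of H2A in the nucleosome. It was 6.43 ± 0.105 FPKM with DMSO and 101 ± 1.33 FPKM with DAC (SD, n = 2). The 6 H1 genes without H1-10 went from 1.64 ± 0.0293 to 57.2 ± 1.05 FPKM, nearly all of it from H1-2. H2A genes summed to 2.91 ± 0.665 FPKM with DMSO and 22.7 ± 0.147 FPKM with DAC. H4 genes, which encode the most conserved core histone, summed to 5.99 ± 0.358 and 20.3 ± 0.448 FPKM. H3 genes had the lowest sums, 0.876 ± 0.472 and 6.12 ± 1.09 FPKM. In bulk RNA a change in the number of cells that express a gene and a change in its level per cell cannot be told apart.

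Single genes were tested with limma on log2(FPKM + 1) among the 14899 genes that reached 1 FPKM in 2 or more libraries. A gene was called when its unadjusted p was at most 0.01 and its log2 fold change at least 1 in size, and p-values were adjusted over these 14899 genes by the Benjamini-Hochberg method. Of the 67 members 24 passed the filter and 43 did not. DAC raised 18 of the 24 and lowered none, beside 6.66% of all tested genes raised and 2.64% lowered. No member had a lower level with DAC at an unadjusted p under 0.05, and limma voom on recovered reads lowered none. The median log2 fold change was 1.47 for the 24 and 0.06 for all tested genes. That of the members was 0.36 without a filter on low values and 3.48 with a pseudocount of 0.1. Neither these counts nor the median of the 24 can be read as values of the whole gene family. Of the 24, 14 passed only with the help of the parental DAC libraries, so that a high level there was what let them in. Of these, 11 were raised. H2AC20 is one of the 14 and passed with 1 parental DAC library and 1 resistant DMSO library. The other 10 passed through other libraries, and 7 of them were raised. Only 4 members had at least 1 FPKM in both parental DMSO libraries, and of these H1-10, H2BC5 and H2BC12 were raised and H4C3 was not.

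**Figure D2:**
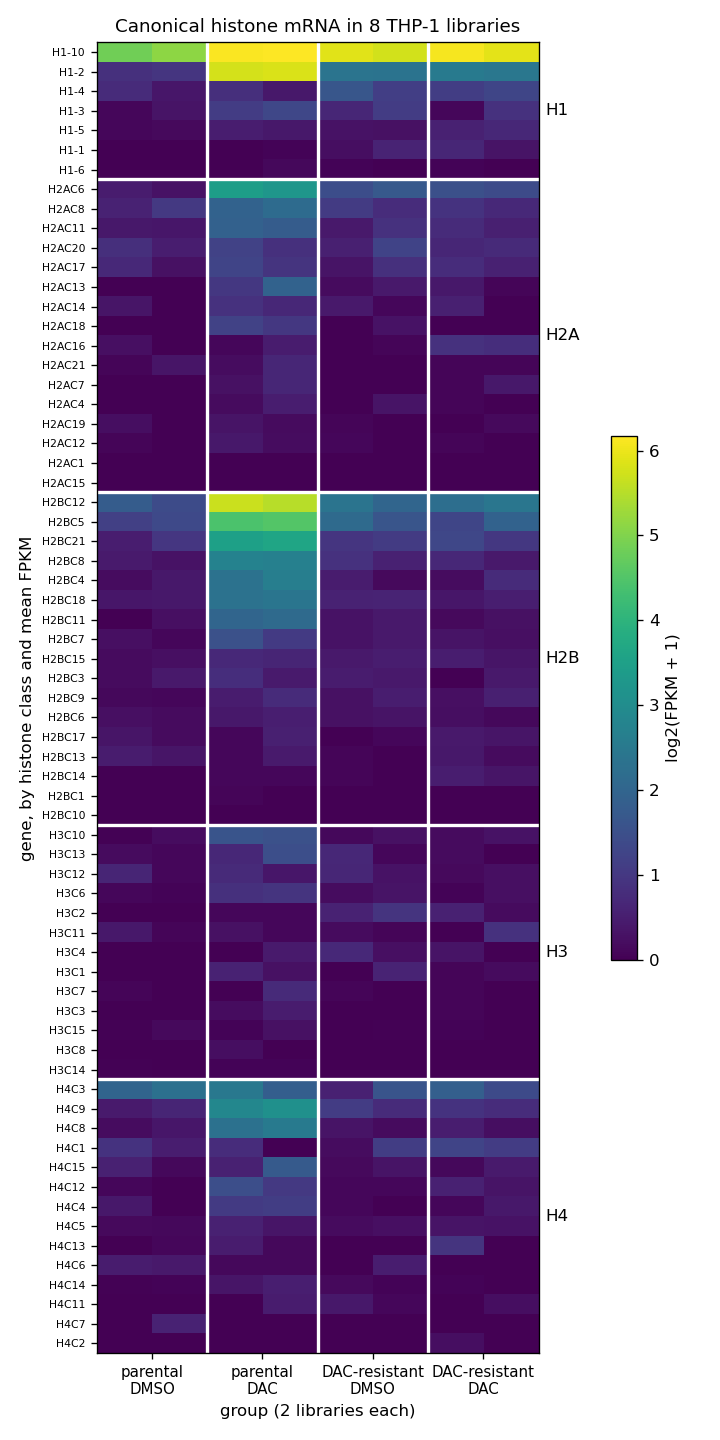
log2(FPKM + 1) of all 67 canonical histone genes (vertical axis, ordered by class and mean level) in the 8 libraries (horizontal axis, 2 columns for each group). Bright cells of the parental DAC columns belong to a limited number of genes in each class, led by H1-10, H1-2, H2BC12 and H2BC5, and most H3 genes stay dark in all columns.

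Among linker histones, H1-2 showed the largest change of any member. It was at 0.820 and 0.947 FPKM in the parental DMSO libraries and at 54.1 and 55.6 FPKM in the DAC libraries, a 62.1-fold ratio of means. The DAC libraries thus lay far above the DMSO libraries, and the replicates of each group differed little. H1-2 rose by 4.89 ± 0.05 on the log2(FPKM + 1) scale (SE, adjusted p = 3.36e-08, limma). This gene alone held 19.2% and 18.9% of the reads of the 66 members in the parental DAC libraries, against 3.78% and 4.21% with DMSO.

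H1-10 differed from the others in its high level without the drug. It was at 27.4 and 33.8 FPKM with DMSO and at 69.5 and 71.3 FPKM with DAC. The groups did not overlap, and the 2.30-fold ratio of means was the smallest of the raised members, before 4.15-fold in H2AC8. On the log2(FPKM + 1) scale H1-10 rose by 1.18 ± 0.11 (adjusted p = 0.000136, limma). H1-4, a linker histone of cycling cells, did not pass the test, with 0.681 and 0.293 FPKM in DMSO and 0.786 and 0.324 FPKM in DAC. H1-3 came close to the limits, with a log2 fold change of 0.98 and an unadjusted p of 0.0109 (limma).

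All 8 tested genes of the 17 H2B members were raised, beside 6.66% of all tested genes. H2BC4, H2BC7, H2BC8, H2BC11 and H2BC18 had passed the filter only with the parental DAC libraries. The count can thus not be read as a share of the class. H2BC12 was at 2.48 and 1.67 FPKM with DMSO and 50.6 and 44.8 FPKM with DAC (3.99 ± 0.17 on the log2 scale, adjusted p = 4.99e-06, limma). H2BC5 was at 1.27 and 1.55 FPKM with DMSO and 20.4 and 21.9 FPKM with DAC (3.20 ± 0.24, adjusted p = 6.12e-05, limma). H2BC21, which lies in the chromosome 1 cluster, was at 0.402 and 0.977 FPKM with DMSO and 10.3 and 11.4 FPKM with DAC (2.83 ± 0.18, adjusted p = 3.09e-05, limma). In each of these genes the lower DAC library was several times above the higher DMSO library.

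The other H2B genes had low levels in DMSO. H2BC8 was at 0.370 and 0.236 FPKM with DMSO and 5.62 and 5.46 FPKM with DAC, H2BC4 at 0.151 and 0.316 against 4.06 and 5.19 FPKM, and H2BC18 at 0.296 and 0.310 against 3.99 and 4.30 FPKM. Their log2 fold changes were 2.33, 2.18 and 1.98. H2BC11 had 0 and 6 reads in the DMSO libraries and 87 and 97 in the DAC libraries, a 34.5-fold ratio with a 95% counting interval of 15.6 to 95.3. H2BC7 had the smallest rise of the tested genes of the class, from 0.185 and 0.0827 to 1.89 and 1.06 FPKM (log2 fold change 1.11). Without the first DAC replicate it was 0.87, below the limit of 1. The groups did not overlap in any of these 5 genes. All 5 had passed the filter only with the parental DAC libraries, so this was largely set in advance. Of all genes above 0, 33.6% had both DAC libraries above both DMSO libraries.

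H2A genes followed at lower levels. H2AC6, which shares a promoter region with H2BC4, was at 0.397 and 0.237 FPKM with DMSO and 9.88 and 8.46 FPKM with DAC (2.95 ± 0.12, adjusted p = 4.44e-06, limma). H2AC11 was at 0.308 and 0.293 FPKM with DMSO and 2.78 and 2.46 FPKM with DAC, and H2AC8 at 0.496 and 1.04 against 2.86 and 3.50 FPKM. Both groups were apart in all 3 genes, and the log2 fold changes of the latter pair were 1.48 and 1.26. Of the raised H2A genes, H2AC11 and H2AC13 had passed the filter only with the parental DAC libraries. H2AC13 had no read in either DMSO library and 14 and 39 in the DAC libraries, so that it was at least 19.9-fold higher against a floor of 3 reads over the DMSO group. Its call (log2 fold change 1.47, adjusted p = 0.00529, limma) was lost when either DMSO replicate was left out, at an adjusted p of 0.0268 without the first and 0.0269 without the second (limma). H2AC20 did not pass, with 0.766 and 0.401 FPKM against 1.33 and 0.810 FPKM.

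Only 1 of the 13 H3 genes reached the test, and it had passed the filter only with the parental DAC libraries. H3C10 was at 0.0255 and 0.160 FPKM with DMSO and 2.06 and 1.88 FPKM with DAC (1.44 ± 0.13, adjusted p = 0.000116, limma). The next highest H3 genes, H3C13 and H3C12, did not pass the filter. H3C13 was at 0.134 and 0.0703 FPKM with DMSO and 0.620 and 1.78 FPKM with DAC. H3C12 was at 0.551 and 0.0769 against 0.678 and 0.297 FPKM, and its groups overlapped.

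The H4 genes were mixed. H4C9 was at 0.366 and 0.561 FPKM with DMSO and 6.24 and 7.51 FPKM with DAC (2.43 ± 0.15, adjusted p = 2.22e-05, limma). H4C8 was at 0.146 and 0.290 FPKM with DMSO and 3.92 and 4.73 FPKM with DAC (2.13 ± 0.14, adjusted p = 3.64e-05, limma). H4C12 had 1 read over both DMSO libraries and 30 over both DAC libraries, a 33.8-fold ratio with a 95% counting interval of 5.62 to 1380, and its log2 fold change of 1.19 was 0.97 without the first DAC replicate. These 3 genes did not overlap between the groups. All 3 had passed the filter only with the parental DAC libraries, so the lack of overlap and their p-values are no independent support. Of all genes above 0, 33.6% had both DAC libraries above both DMSO libraries. H4C3 was the highest H4 gene without DAC, at 2.96 and 3.83 FPKM, and with DAC it was at 4.58 and 2.61 FPKM, one value above and one below. H4C4 had an adjusted p of 0.00489 (limma) at a log2 fold change of 0.89, and H4C1 was at 0.863 and 0.410 FPKM with DMSO and at 0.724 and 0 FPKM with DAC.

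**Figure D3:**
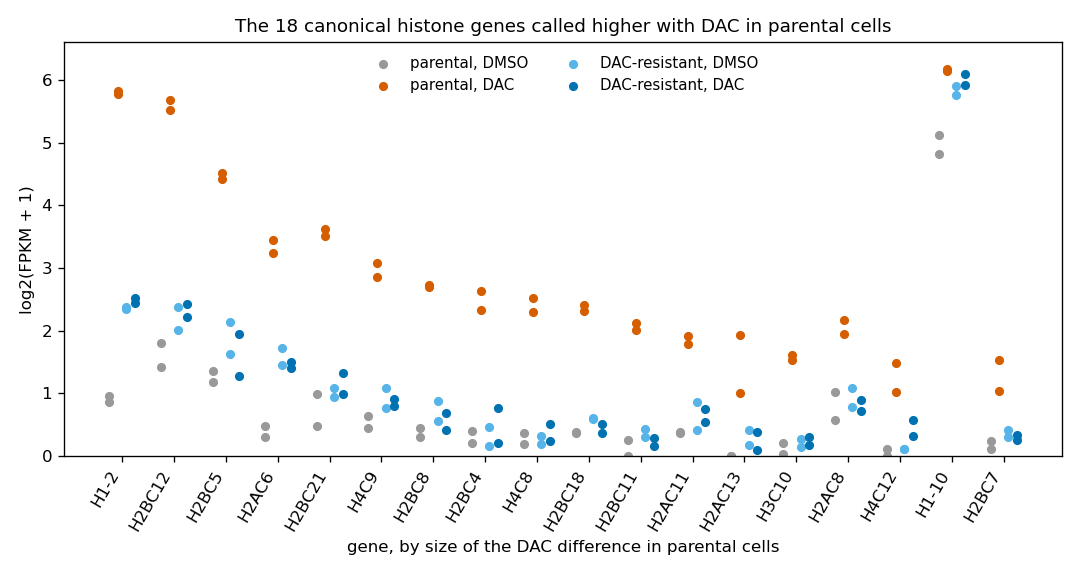
log2(FPKM + 1) of the 18 canonical histone genes called higher with DAC in parental cells (horizontal axis, by size of the difference), 1 point for each library and 1 colour for each group. In every gene both parental DAC points lie above the 6 other points, by a narrow margin in H1-10. Of the 18 genes, 11 had passed the filter only with the parental DAC libraries.

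The 43 members below the filter were not tested. They took 4.64 and 3.39 RPM in the parental DMSO libraries, 14.1 and 19.0 in the parental DAC libraries and 6.16 to 7.67 in the 4 resistant libraries. H2AC1, H2AC15 and H2BC10 were listed at 0 in every library. Of the testis histone genes, H2BC1 had 1 read in 1 parental DAC library and H1-6 had at most 2 reads in any library. Counting all 64 members above 0, both DAC libraries exceeded both DMSO libraries in 43 and lay below both in 1. Over all 39592 genes above 0 these shares were 33.6% and 19.0%. An FPKM limit is harder to pass for genes with long models, so limma voom was also run on recovered reads of genes with at least 10 reads in 2 libraries, an alternative chosen after seeing the data. It tested 37 members and raised 25 in parental cells, among them all 18 named above. Of the others, H1-3 and H4C4 had passed the FPKM filter without a call. The 5 that had not passed the FPKM filter were H2AC18, H2BC9, H2BC15, H3C6 and H4C14, and H3C6, for example, had 7 and 4 reads with DMSO and 59 and 66 with DAC. It raised 14.1% of all genes it tested. Its filter, too, was passed only with the parental DAC libraries by H2AC13, H2AC18, H2BC11, H3C10, H4C4, H4C12 and H4C14. The count of 25 can thus not be read as a share of the family.

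Genes of this family are known to differ in whether they make polyadenylated mRNA. A list of 7 genes with such transcripts (H1-2, H2AC6, H2BC4, H2BC5, H2BC12, H2BC21 and H4C8) was written with earlier results of these data known, so that its count is no independent evidence. All 7 were raised, beside 6.66% of all tested genes, and H2BC4 and H4C8 among them had passed the filter only with the parental DAC libraries. The length over which the authors had scaled each gene also shows whether its model runs past the stem-loop. It did so by more than 50 bases in 25 of the 64 members with a stem-loop. Of the 17 raised members with a stem-loop 12 were among them, which cannot be set against the other members, since 9 of these 12 passed the filter only with the parental DAC libraries. The 5 raised members whose models end near the stem-loop were H1-2, H2AC8, H2AC13, H2BC12 and H4C12. For H1-2 the model is 731 bases long and reaches 4 bases past the stem-loop shown above, and for H2BC12 it is 495 bases long. The 25 genes with longer models took 303 and 332 reads in parental DMSO libraries and 3568 and 3856 in parental DAC libraries. The 39 genes with models ending at the stem-loop took 197 and 167 reads and then 2069 and 2046. H1-2 and H2BC12 held most of the latter, and the other 37 took 139 and 121 reads with DMSO and 294 and 320 with DAC. Reads were thus higher with DAC in both kinds of gene, and the table holds no positions within genes, so where on these mRNAs the reads lay was not analysed.

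**Figure D4:**
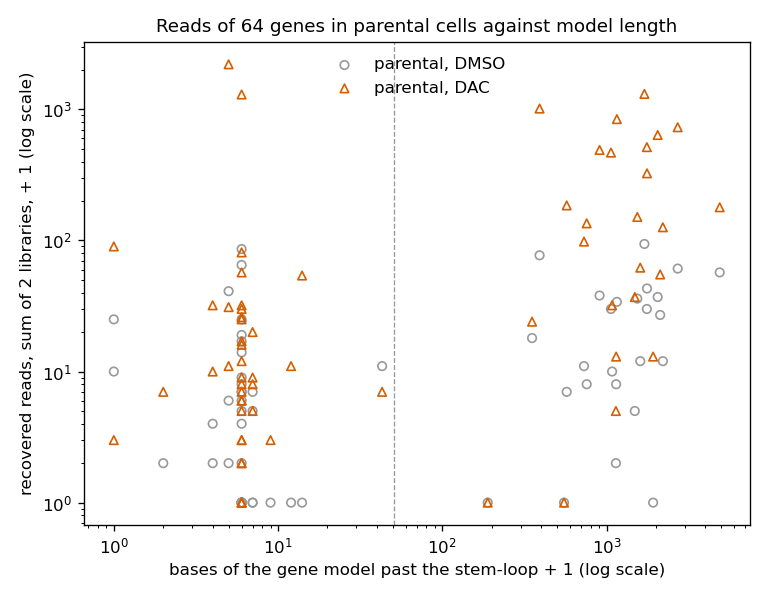
Recovered reads in the 2 parental DMSO libraries (circles) and the 2 parental DAC libraries (triangles), summed and with 1 added (vertical axis, log scale), of 64 canonical histone genes against the bases of the gene model past the stem-loop, with 1 added (horizontal axis, log scale). The dashed line stands at 50 bases, and triangles above 1000 reads occur on both sides of it.

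The next question was whether DAC acted on these genes in the resistant line. None of the 24 tested members was raised and none was lowered, beside 0.114% and 0.121% of all tested genes, so that few genes of any kind were called. No member had an unadjusted p under 0.05 in either direction in limma, and voom on recovered reads of the same genes called none. The voom run on genes with at least 10 reads called H2AC16 higher, with 0 and 1 reads in DMSO and 13 and 11 in DAC, and 0.34% of all genes it tested. H2AC16 had passed the filter of that run only through these resistant DAC libraries, so its high values there let it in. The 66 members without H1-10 took 28.8 and 30.4 RPM with DMSO and 29.1 and 29.3 with DAC. In reads the DMSO and DAC libraries of resistant cells thus overlapped, between the parental DMSO and the parental DAC values. In summed FPKM they lay close without overlap, at 29.6 and 31.3 with DMSO and 32.2 and 31.6 with DAC.

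H1-2 was at 4.20 and 4.10 FPKM with DMSO and at 4.76 and 4.47 FPKM with DAC in resistant cells (0.12 ± 0.05 on the log2 scale, unadjusted p = 0.0588, limma). H2BC12 was at 4.22 and 3.02 FPKM against 3.67 and 4.35 FPKM, and H2AC6 at 1.75 and 2.29 against 1.84 and 1.66 FPKM. The libraries of the 2 groups overlapped in H2BC12 and H2AC6. H2BC5 was at 3.42 and 2.10 FPKM with DMSO and 1.44 and 2.85 FPKM with DAC, which also overlap. Over the 24 tested members the log2 fold changes ran from -0.38 (H1-3) to 0.54 (H4C3), with a median of -0.02 beside 0.01 for all tested genes. Of the 64 members above 0, 11 had both DAC libraries above both DMSO libraries and 6 had both below, beside 16.9% and 15.4% of all genes above 0.

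**Figure D5:**
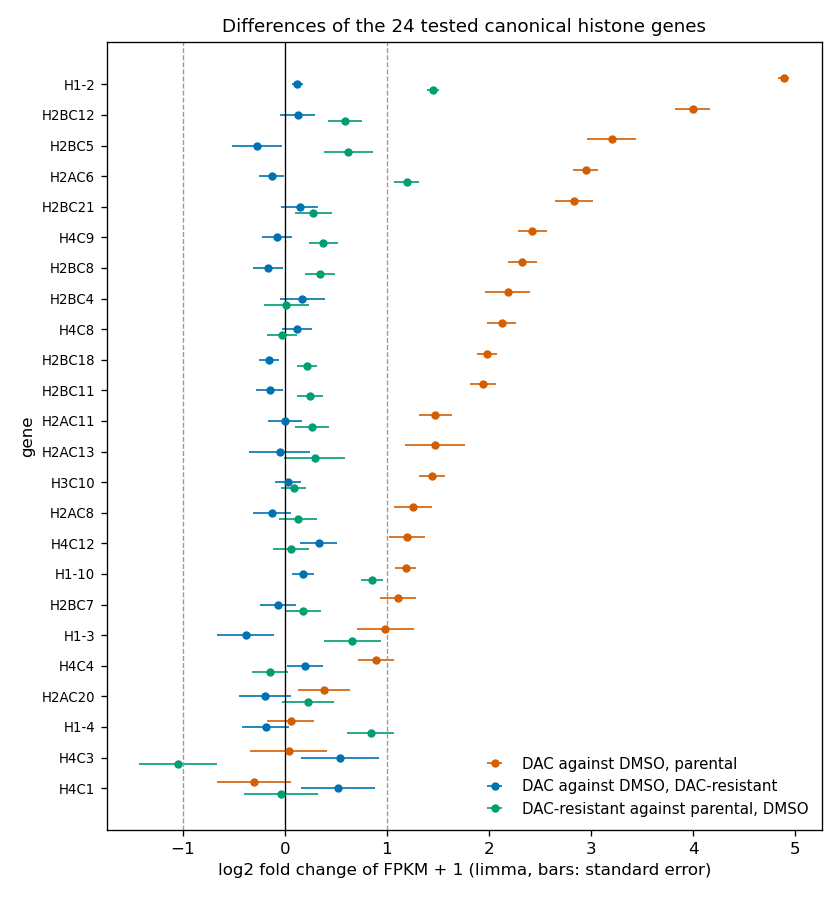
log2 fold changes of FPKM + 1 (horizontal axis) of the 24 tested canonical histone genes (vertical axis) in 3 comparisons, with points for limma estimates and bars for standard errors, and dashed lines at 1 and -1. The parental DAC points reach 4.89, the resistant DAC points stay between -0.38 and 0.54, and the differences between the lines in DMSO pass 1 with a call only for H1-2 and H2AC6.

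The difference between the DAC effects of the 2 lines was tested as an interaction. It was negative and called in 17 members and positive in none, beside 7.16% and 3.46% of all tested genes. No member had a positive difference at an unadjusted p under 0.05 (limma), and voom on the same genes called none. The median over the 24 was -1.50, and over all tested genes -0.05. As with the first comparison, the count and the median cannot be read as shares of the family, since 10 of the 17 had passed the filter only with the parental DAC libraries, whose high values also make the difference negative. Of the 10 members that passed through other libraries 7 were called, and without a filter on low values the median was -0.48. On the log2(FPKM + 1) scale the largest differences were -4.77 ± 0.08 for H1-2 (adjusted p = 2.27e-07, limma), -3.87 ± 0.24 for H2BC12 (adjusted p = 4.38e-05) and -3.48 ± 0.34 for H2BC5 (adjusted p = 0.000304). The voom run on genes with at least 10 reads ordered them differently, with -6.66 for H2BC11 and -5.77 for H1-2. H2BC11 had passed the filter of that run only with the parental DAC libraries. Of the members raised in parental cells H4C12 alone was not called, at -0.86 (adjusted p = 0.029, limma). Without H1-10 the count was 16.

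The third question was how the lines differed without the drug. H1-2 and H2AC6 were higher in resistant cells and no member was lower, beside 4.45% and 4.28% of all tested genes. H1-2 was at 0.820 and 0.947 FPKM in parental cells and 4.20 and 4.10 FPKM in resistant cells (1.45 ± 0.05 on the log2 scale, adjusted p = 3.6e-06, limma). H2AC6 was at 0.397 and 0.237 against 1.75 and 2.29 FPKM (1.19 ± 0.12, adjusted p = 0.000244, limma). In both genes every resistant library lay above every parental DMSO library.

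Other tested members moved less between the lines on the log2(FPKM + 1) scale. H1-1, which had not passed the filter, had 0 and 0 reads in parental and 4 and 12 in resistant DMSO libraries. The voom run on genes with at least 10 reads called it higher (3.90, adjusted p = 0.0135), beside 7.69% of all genes it tested. H1-1 reached 10 reads only in resistant libraries, so its high values there let it into that run. H1-10 was at 58.7 and 53.0 FPKM in resistant DMSO libraries, above both parental DMSO values, and its log2 fold change of 0.85 (adjusted p = 0.000603, limma) stayed under the limit of 1. Without the second parental DMSO replicate it was 1.00 and was called. H1-4 was at 2.13 and 1.23 FPKM in resistant DMSO cells (0.84, adjusted p = 0.0189, limma), also above both parental values. It was not called by limma on FPKM, and voom on recovered reads called it higher, by 1.80 (adjusted p = 0.0143). H4C3 went the other way, with 0.469 and 2.05 FPKM in resistant cells against 2.96 and 3.83 FPKM (-1.05, unadjusted p = 0.0303, limma). It was the member with a lower level at an unadjusted p under 0.05, and voom on recovered reads of the tested genes called it lower, at -1.74, but did not on genes with at least 10 reads. The median difference over the 24 tested members was 0.26, beside 0.02 for all tested genes. It was 0.10 without a filter on low values and 0.71 with a pseudocount of 0.1. Of the 64 members above 0, 27 had both resistant libraries above both parental ones and 4 had both below, beside 22.6% and 24.8% of all genes above 0.

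With DAC in both lines, resistant cells had lower levels of 15 members and higher levels of none, beside 9.17% of tested genes lower and 5.29% higher. H1-4 was the member with a higher level at an unadjusted p under 0.05 (0.0391, limma), and voom called no member higher. The median over the 24 was -1.29, and over all tested genes -0.03. This comparison shares its parental libraries with the first one, and both thus rest on the same high values, through which 9 of the 15 had passed the filter. Without a filter the median was -0.31. Resistant cells without the drug had 7.57% of the parental DAC level in H1-2, 7.60% in H2BC12, 13.0% in H2BC5 and 22.0% in H2AC6. In H1-10 it was 79.3%, the highest share of the 18 raised members.

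Promoters of the members were read from RefSeq (GRCh38.p14) as windows of 300 bases that lie mostly upstream of each start, to show which motifs the members hold. Of the 67 symbols 62 were matched. A TATA box (TATAAA on either strand) was in 43 of the 62 (69.4%), beside 11.5% of all 35116 promoters. The letters CCAAT on either strand were in 52 (83.9%), beside 34.6%. The octamer ATTTGCAT on either strand, known from H2B promoters, was in 26 (41.9%), beside 1.77%, and these were 14 of 17 H2B, 11 of 15 H2A and 1 of 11 H3 genes, with none among H1 and H4 genes. The 18 raised members held the octamer in 10 cases, CCAAT in 15 and TATAAA in 13. CG dinucleotides, the sites that DAC can strip of methylation, had a median of 12.5 per promoter in the raised members, 11.5 in the other members and 14 in all promoters. Promoter methylation was not among the values analysed here.

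The promoters of 4 raised genes with large changes are shown 5′ to 3′ on the strand of the gene, with each of the 3 motifs in capitals in either orientation (ATTGG is CCAAT and ATGCAAAT is ATTTGCAT on the other strand). They are chr6:26056421-26056720 (minus strand, H1-2), chr6:26123922-26124221 (plus, H2AC6), chr6:27146809-27147108 (minus, H2BC12) and chr6:27139032-27139331 (plus, H4C9), and hold 15, 8, 11 and 5 CG dinucleotides. A match of letters is a description and no evidence of binding.
H1-2: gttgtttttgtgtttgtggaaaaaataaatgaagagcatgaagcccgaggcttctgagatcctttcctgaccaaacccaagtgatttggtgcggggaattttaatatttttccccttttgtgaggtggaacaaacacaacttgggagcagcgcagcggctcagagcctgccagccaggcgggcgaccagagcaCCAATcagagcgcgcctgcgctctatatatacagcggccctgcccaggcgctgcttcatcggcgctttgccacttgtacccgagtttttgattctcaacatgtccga
H2AC6: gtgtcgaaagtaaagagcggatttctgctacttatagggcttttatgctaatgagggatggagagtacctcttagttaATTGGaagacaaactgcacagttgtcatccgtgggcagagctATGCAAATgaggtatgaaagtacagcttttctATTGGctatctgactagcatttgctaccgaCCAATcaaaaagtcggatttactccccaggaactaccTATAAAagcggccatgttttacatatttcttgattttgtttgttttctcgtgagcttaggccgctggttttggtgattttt
H2BC12: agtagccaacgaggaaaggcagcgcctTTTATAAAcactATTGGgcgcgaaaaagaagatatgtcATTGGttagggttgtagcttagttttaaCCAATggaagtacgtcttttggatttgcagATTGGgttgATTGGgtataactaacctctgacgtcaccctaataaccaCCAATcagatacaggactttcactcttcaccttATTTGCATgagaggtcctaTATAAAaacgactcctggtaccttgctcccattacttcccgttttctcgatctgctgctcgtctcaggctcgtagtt
H4C9: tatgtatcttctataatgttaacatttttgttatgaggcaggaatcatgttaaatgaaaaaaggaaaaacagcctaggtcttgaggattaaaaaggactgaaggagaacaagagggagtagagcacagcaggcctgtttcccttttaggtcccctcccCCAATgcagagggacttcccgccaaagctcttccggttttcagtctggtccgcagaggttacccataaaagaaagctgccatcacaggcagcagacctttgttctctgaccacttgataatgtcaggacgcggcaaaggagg

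Histone genes often lie head to head, and 12 pairs of members had divergent starts within 500 bases of each other. Both genes were raised in 3 pairs (H2BC4 with H2AC6, H2BC8 with H2AC8 and H2BC11 with H2AC11). In 5 other pairs neither gene passed the filter, and in 3 pairs with 1 raised gene the other had not passed it, so that only 4 pairs had both genes tested. In the pair of H2BC12 and H2AC12, whose starts are 251 bases apart, H2BC12 went from 39 and 25 to 688 and 609 reads with DAC, while H2AC12 had 1 and 0 reads and then 4 and 2. In the pair of H2BC21 and H2AC20 the reads went from 28 and 65 to 624 and 686 in the former and from 12 and 6 to 18 and 11 in the latter. The difference between neighbours was not tested.

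Genes of histone mRNA synthesis and processing were described as a list. Of 23 tested, none was called with DAC in parental cells, although 7 were higher and 5 lower at an adjusted p under 0.05 (limma), beside 33.6% and 24.1% of all tested genes. The median log2 fold change was 0.07, beside 0.06 for all tested genes. SLBP, the stem-loop binding protein, was at 48.3 and 48.3 FPKM with DMSO and 58.6 and 62.9 FPKM with DAC (0.32 ± 0.04, adjusted p = 0.000323, limma). NPAT was at 6.37 and 5.81 against 7.11 and 6.85 FPKM (0.17 ± 0.05, adjusted p = 0.0332, limma). MIF4GD, an SLBP partner in histone mRNA translation, was higher in resistant cells with DMSO (1.01, adjusted p = 5.4e-05, limma), but at 0.92 to 0.93 under upper-quartile and quantile scaling it was not called. With DAC in both lines it was also called higher in resistant cells (1.80, adjusted p = 2.49e-06, limma).

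Histone genes outside the member rule, listed by hand as replacement histones, were measured beside the canonical ones. Whether each of them is made outside of replication was not tested. Of 12 tested, 3 were raised by DAC in parental cells, among them H2AW and H2AJ. H2AW was at 2.22 and 3.13 FPKM with DMSO and 16.9 and 15.1 FPKM with DAC (2.22 ± 0.22) and H2AJ at 3.66 and 4.12 against 9.30 and 9.80 FPKM (1.11 ± 0.10). None was lowered, beside 6.66% of all tested genes raised and 2.64% lowered. At an adjusted p under 0.05 (limma) 5 were higher and 5 lower, and the median was 0.01. Between the lines with DMSO, 2 of the 12 were lower in resistant cells and none was higher, beside 4.28% and 4.45% of all tested genes. Of these 2, MACROH2A2, a macroH2A of silent chromatin, was at 0.0740 and 0.0799 FPKM in resistant cells. In parental cells it was at 1.31 and 1.38 FPKM (-1.12 ± 0.10).

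Of 23 tested histone chaperones none was raised by DAC in parental cells, beside 6.66% of all tested genes. NAP1L1, which carries H2A and H2B, was lowered there, from 72.6 and 71.6 to 25.1 and 24.9 FPKM (-1.49 ± 0.02). Of all tested genes 2.64% were lowered. At an adjusted p under 0.05 (limma) 7 chaperones were higher and 8 lower. S-phase genes were measured because canonical histone genes are transcribed in that phase. With DAC in parental cells an adjusted p under 0.05 (limma) was reached by 14 of 20 on the lower side and by 2 on the higher side, against the same 24.1% and 33.6% of all tested genes. CDT1, a replication licensing factor, was called lower (-1.15 ± 0.04), no gene was called higher, and the median was -0.21. In resistant cells 17 of 20 were lower with DAC at that threshold and none higher, beside 5.35% and 5.88% of all tested genes, with no call in either direction and a median of -0.31. These levels moved with the treatment in both lines, while the canonical histone mRNAs moved in parental cells, and their part in the histone result was not tested. Between the lines with DMSO, 13 of 20 were higher and 3 lower in resistant cells at that threshold, beside 31.3% and 26.2% of all tested genes, with a median of 0.20 beside 0.02. Of these, RRM2, a ribonucleotide reductase subunit, was called higher (1.02) and TYMS, thymidylate synthase, called lower (-1.01). Both lay close to the limit of 1 in size.

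Shared reads limit single values. Exons of 11 members overlap another annotated gene, and 5 of the 18 raised members are among them (H1-10, H2AC6, H2BC4, H2BC18 and H4C8), while the sources used here do not state whether reads were counted by strand. H2AC18 with H2AC19, H3C14 with H3C15 and H4C14 with H4C15 are near-identical copies between which reads may be split.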

How the data were processed

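Total RNA of 8 THP-1 cultures was made into libraries with the KAPA mRNA HyperPrep kit and sequenced on an Illumina NovaSeq. Per the submitters' processing notes and the study's methods, the authors used FastQC, cutadapt 1.9.1, HISAT2 2.1.0, SAMtools 1.6 and HTSeq 0.13.5 on hg38, and they deposited FPKM values multiplied by 1000 for each library. The strand setting of the counting is not given in the sources used here.

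Values were divided by 1000 and fitted as 4 group means with limma 3.58.1 in R 4.3.3 on log2(FPKM + 1), with variances moderated along a trend (2.5 prior and 4 residual degrees of freedom). The log2(FPKM + 1) scale understates the change of low genes. With 2 libraries against 2, an exact permutation test of 1 gene could not give a two-sided p below 0.333, so p-values come from limma's pooled estimate of the spread. Whole reads were recovered from the steps of the FPKM values and exon lengths of GENCODE v44. Of the gene values, 87.1% were whole within 0.02 reads. The recovered sums were 104.07% to 104.5% of the authors' scaling totals, for a reason that was not found. Counting intervals are exact 95% intervals and cover counting error only, as does the floor of 3 reads.

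Members and gene lists were chosen with earlier results of these data known, and the lists were written by hand. They held 24 genes of histone mRNA synthesis and processing, 14 other histone genes listed as replacement histones and 24 histone chaperones. There were also 20 S-phase genes, 7 histone genes known for polyadenylated transcripts and 3 testis histone genes. Named members are those called in any comparison, the 3 with the highest mean FPKM of each class and those of the last 2 lists. H1-1, H1-3, H2AC12, H2AC15, H2AC16, H2AC18, H2AC20, H2BC9, H2BC10, H2BC15, H3C6, H4C1, H4C4 and H4C14 were named after their values were seen. Of other lists, SLBP, NPAT and up to 4 called genes with the largest changes are named. The fit was tested on simulated data. The alternatives used a pseudocount of 0.1, no minimum level, a minimum mean of 5 FPKM, values rescaled to TPM, 2 other scalings (quantile, upper-quartile), a replicate block, a fit of the compared groups alone, plain in place of moderated variances, calls by adjusted p, voom on the recovered reads, and fits that each leave out 1 library. A voom run on genes with at least 10 reads in 2 libraries was added after seeing the data. Repeat families in the same table were not used here, and 2 genes of the lists and markers are not reported here.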

Additional observations from a re-analysis of the deposited data

Results flagged for a closer look

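The effect of DAC differed between the lines in 17 canonical histone genes, by the interaction in limma, with DAC-resistant minus parental values on the log2(FPKM + 1) scale given here and no explanation weighed. Of the 17, 10 had passed the filter on low values only with the parental DAC libraries (H2AC11, H2AC13, H2BC4, H2BC7, H2BC8, H2BC11, H2BC18, H3C10, H4C8 and H4C9), so that the high values that let them in also set the direction of their difference. Among linker histones the difference was -4.77 for H1-2 and -1.01 for H1-10. For H1-10 it fell short of the limit under TPM (-0.97) and upper-quartile scaling (-0.90) and, at -0.86 to -0.99, without parental DMSO replicate 1, parental DAC replicate 2, resistant DMSO replicate 1 or resistant DAC replicate 2. Among H2A genes it was -3.08 for H2AC6, -1.52 for H2AC13, -1.47 for H2AC11 and -1.38 for H2AC8. H2AC13 had few reads, and its call was lost in 10 of the alternatives, 6 of them leaving out a library of another group than parental DAC. Among H2B genes it was -3.87 for H2BC12, -3.48 for H2BC5, -2.69 for H2BC21, -2.50 for H2BC8, -2.14 for H2BC18, -2.09 for H2BC11, -2.01 for H2BC4 and -1.18 for H2BC7. For H2BC7 it fell short of the limit without parental DAC replicate 1. For H3C10 it was -1.42, and among H4 genes it was -2.50 for H4C9 and -2.01 for H4C8. With plain in place of moderated variances 14 of the 17 were called. The voom run on genes with at least 10 reads did not call H2AC8 (-2.37, adjusted p = 0.0328).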

How the results depend on the processing

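The replicate numbers did not pair the libraries (correlations of same-numbered deviations from -0.022 to 0.02). With the replicate block the counts were as without it, 18 raised members in parental cells and 17 interaction calls, of which 16 were the same genes. The 15 counts and medians kept their size under most of the alternatives, and the exceptions follow, mostly of medians, since the pseudocount and the filter set the scale of low genes. With genes of a mean of at least 5 FPKM only 4 members were tested. All 4 were raised by DAC in parental cells (median 3.60), 1 was higher in resistant cells with DMSO (0.74), 3 were lower in resistant cells with DAC (-3.07), 4 had a lower DAC effect there (-3.67), and the median of DAC in resistant cells was 0.12. In the order parental DAC, lines with DMSO, lines with DAC and interaction, medians were 3.48, 0.71, -2.56 and -3.41 with a pseudocount of 0.1, 0.36, 0.10, -0.31 and -0.48 without a filter, 2.65, 0.54, -2.07 and -2.71 with TPM, 3.89, 0.84, -2.84 and -3.82 with voom and 3.09, 0.81, -2.38 and -2.98 with voom on genes of at least 10 reads. The last run raised 1 member in resistant cells with DAC and 4 between the lines with DMSO, and voom on the tested genes lowered 1 between the lines. Under quantile normalization the medians of the parental DAC, lines with DAC and interaction comparisons were 1.32, -1.11 and -1.34. Leaving out each replicate in turn, 16 to 18 members were raised in parental cells (medians 1.47 to 1.67), 14 to 16 were lower between the lines with DAC (-1.53 to -1.28), 15 to 17 interactions were called (-1.74 to -1.47), and 2 to 3 members were higher and 0 to 1 lower between the lines with DMSO. The lowered one was H4C3, at -1.57 without resistant DMSO replicate 2. Over all tested genes, DAC in parental cells raised 993 and lowered 394, against 843 and 580 under quantile normalization. Between the lines with DAC it was 788 and 1366 against 1019 and 1161, and for the interaction 516 and 1067 against 686 and 916. With TPM more genes of all kinds were called in every comparison, 1301 raised and 634 lowered by DAC in parental cells, 46 and 43 in resistant cells (17 and 18 without rescaling), 1084 and 952 between the lines with DMSO (663 and 637), 1461 and 1660 with DAC, and 797 and 1296 for the interaction. About 3 reads or fewer per library, the level of many members in parental DMSO cells, limit what can be said of single low genes, as do 2 libraries per group.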
